A study of Homo sapiens with 20 samples.

Results

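Heat shock proteins of the cytosol and the mitochondrion were followed through their mRNA in MDA-MB-468 cells exposed to epidermal growth factor (EGF). The 10 genes were picked by name, and each matched 1 row among the 60271 genes of the count table. They are HSPA1A, HSPA1B, HSPA8, HSPH1, DNAJB1, BAG3, HSPB1, HSP90AA1, HSPD1 and HSPE1, and all 10 passed the filter on low counts, which left 16522 genes for testing. MDA-MB-468 is an established line of triple-negative breast cancer cells with a very high level of the EGF receptor. The treated cells received EGF at 50 ng/mL over 12, 24, 48 or 72 h to induce an epithelial-mesenchymal transition, and the control was left untreated. Each of the 5 groups had 4 biological replicates, so that 20 libraries were analyzed, and the labels state no genetic manipulation. Per the labels, cells were kept without serum for 24 h ahead of EGF and the groups shared their seeding and collection. How long the cells of each group went without serum in all is not stated.

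Molecular chaperones bind unfolded proteins and help them reach or regain their native shape. HSP70 proteins do so in a cycle driven by ATP, which J proteins start and nucleotide exchange factors end, and HSP90 takes over many kinases and receptors from them. In the mitochondrial matrix, HSPD1 and HSPE1 together form a folding chamber, and many chaperone genes are driven by heat shock factor 1 through heat shock elements, which are repeats of the unit GAA and its complement TTC in alternating orientation.

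The promoters are shown as a description of the 10 genes, which were picked by name as heat shock genes. RefSeq promoter windows on GRCh38.p14, from 250 bases before to 50 bases after a start site, were found for all 10 genes, with 14 windows in all. An element of 2 units was searched for on both strands as GAANNTTC or TTCNNGAA, each of which reads the same on the other strand. It was present in the windows of 7 of the 10 genes, against 16.2% of the 27305 genes with a window, and in 8 of the 14 windows, against 13.5% of all 35116 windows. A run of 3 units, GAANNTTCNNGAA or TTCNNGAANNTTC, which contains overlapping 2-unit elements, was present for HSPA8, HSP90AA1 and HSPD1, against 0.608% of all genes. The elements shown for HSPA8, DNAJB1, HSP90AA1 and HSPD1 are upstream of a RefSeq start site but inside the GENCODE 29 span of their gene. With their flanks, the stretches of HSPA1A, HSPA8, HSP90AA1 and HSPD1 and the second of DNAJB1 touched an annotated exon. HSPD1 held 2 overlapping runs of 3 units. In the following stretches upstream of a RefSeq start site, capitals mark the 2-unit elements and the runs of 3.
HSPA1A, chr6:31815426-31815455, plus strand: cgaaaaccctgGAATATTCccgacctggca
HSPA1B, chr6:31827613-31827660, plus strand: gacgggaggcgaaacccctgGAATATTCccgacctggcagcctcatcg
HSPA8, chr11:123062346-123062374, minus strand: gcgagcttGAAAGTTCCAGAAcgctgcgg
HSPA8, chr11:123062171-123062199, minus strand: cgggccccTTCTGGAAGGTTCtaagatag
DNAJB1, chr19:14518447-14518494, minus strand: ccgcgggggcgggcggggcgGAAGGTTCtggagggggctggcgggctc
DNAJB1, chr19:14518426-14518455, minus strand: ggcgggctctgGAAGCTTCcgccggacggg
HSPB1, chr7:76302471-76302518, plus strand: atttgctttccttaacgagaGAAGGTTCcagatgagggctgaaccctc
HSP90AA1, chr14:102087104-102087133, minus strand: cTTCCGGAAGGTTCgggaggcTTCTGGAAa
HSPD1, chr2:197500062-197500090, minus strand: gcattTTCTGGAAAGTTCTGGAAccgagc

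The elements shown for HSPA1A and HSPA1B have the same letters. The windows of HSPH1, BAG3 and HSPE1 held neither form, which says only that these letters are not in those windows. By their RefSeq start sites, HSPD1 and HSPE1 lie head to head. The overlapping runs of 3 units at HSPD1 sit 294 to 311 bases before the RefSeq start of HSPE1, outside the window of that gene. The runs are nevertheless inside the GENCODE span of HSPE1, which begins at 197499994. Of the genes with an element, HSPB1 did not pass the test at 12 h described below, and the others were called higher. Of those without, BAG3 and HSPH1 were called higher, and HSPE1 did not pass. A link between the elements and these changes was not tested. A match is a description of the letters and was not tested as a binding site.

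Library totals ranged from 15611961 to 25856953 counts, and the mean share of mitochondrially encoded genes was lowest at 12 h (9.41%) and highest at 72 h (15.0%), beside 10.9% in the control. The epithelial markers EPCAM, CDH1, KRT8, KRT18 and KRT19 were present in all libraries at 83.0 CPM or more. EGFR was at 3357 CPM or more. CPM are counts scaled to a common library total, here too after the TMM scaling described below. Of the receptors that define triple-negative tumors, PGR had 0 counts in all libraries, which allows no more than 3 counts per library, ESR1 reached 6.53 CPM and ERBB2 24.6 CPM. Markers of blood and stromal cells were low, with at most 0.304 CPM for PTPRC, 0.0558 for COL1A2, 0.154 for DCN, 5.17 for PECAM1 and 14.8 for COL1A1. In bulk RNA, a change in the share of cells that use a gene and a change in RNA per cell cannot be told apart.

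Levels below are CPM after TMM scaling, which corrects for differences in library composition. Differences are log2 fold changes with their standard errors (SE). They were tested by the quasi-likelihood method of edgeR, and p values were adjusted by Benjamini-Hochberg over the 16522 genes, with 0.05 as the threshold. Per kb of the principal transcript, the control level was highest for HSPA8, with 879 CPM per kb, followed by HSPB1 with 354 and HSP90AA1 with 303. HSPD1 had 86.5, DNAJB1 63.7, HSPE1 59.8 and HSPA1A 43.6 CPM per kb, while HSPH1 with 17.5, HSPA1B with 14.0 and BAG3 with 13.2 were lowest. The ranks of HSPA1A, HSPA1B and HSPE1 depend on how reads shared with other genes were divided, which is not given in the sources.

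EGF raised 8 of the 10 genes at 12 h, in a setting where 69.4% of all genes tested were called and 32.9% were higher. BAG3 and HSPH1 had more than 2 times their control level, HSPA8 nearly so, and HSPB1 and HSPE1 did not pass the test. At 24 h, 5 genes were higher and 0 lower, against 29.2% and 29.6% of all genes and 58.8% in either direction. At 48 h the picture was mixed, with 3 genes higher and 4 lower, where 24.0% of all genes were higher, 21.8% lower and 45.8% either. At 72 h, 3 were higher and 5 lower, against 30.6%, 31.0% and 61.6% of all genes. At 12 h, 36.5% of all genes were lower but 0 of the 10.

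The median log2 fold change of the 10 genes against the control was 0.68 at 12 h and 0.24 at 24 h, then -0.13 at 48 h with -0.18 at 72 h, beside -0.05, -0.01, 0.01 and -0.01 over all genes tested. A change of more than 1.5-fold with an adjusted p under the threshold was found for 6 genes at 12 h and 2 at 24 h, but for 0 at 48 h and for 1 at 72 h. Over all genes tested, the shares past both limits were 46.6%, 33.7%, 22.0% and 35.8% in the same order of times. All 4 EGF libraries lay outside the control range, on 1 side of it, for 8 genes at 12 h and 5 at 24 h, and for 3 at 48 h with 4 at 72 h. This was so for 60.8% of all genes tested at 12 h and 48.2% at 24 h, and for 34.9% and 52.0% at the later times. The same 4 control libraries served all these comparisons.

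**Figure D1:**
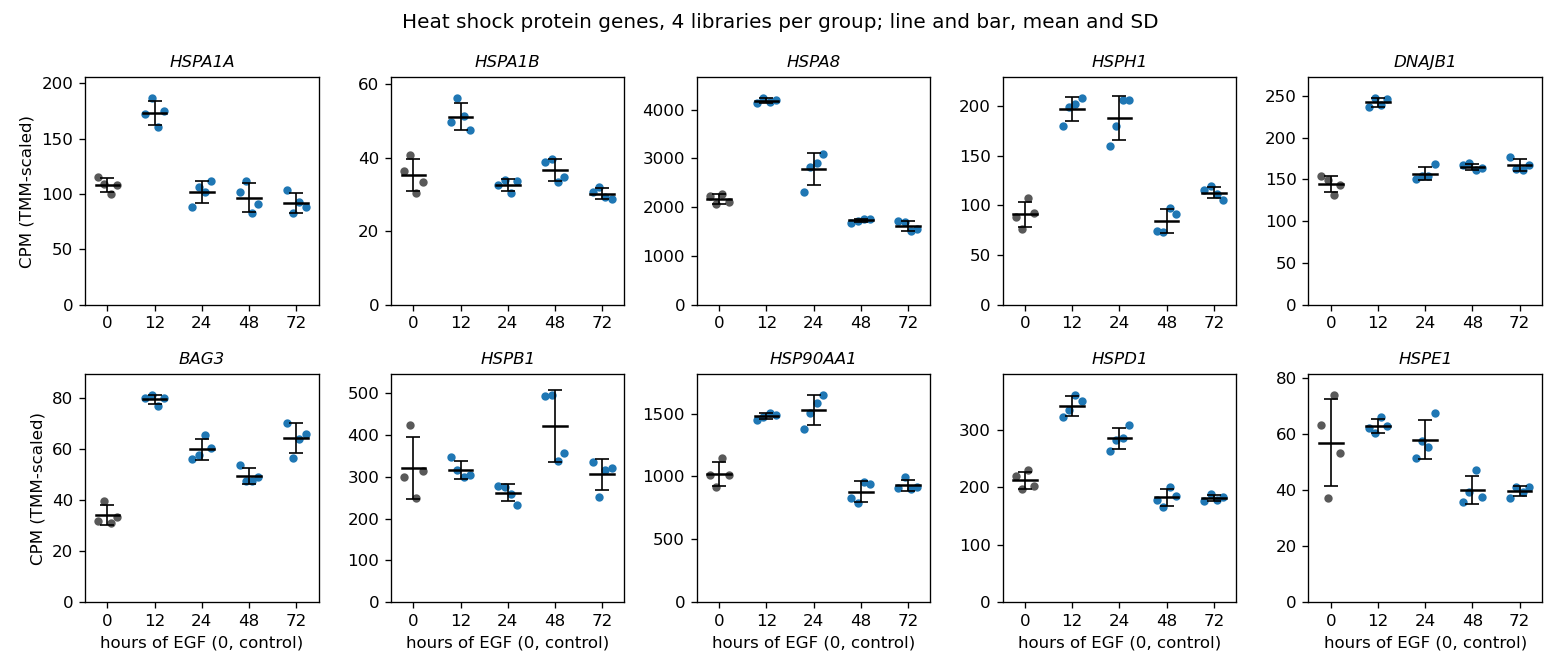
CPM (y axis, from 0) of each gene in each library, by hours of EGF (x axis, 0 is the control), with the mean and SD of 4 libraries. HSPA8 stood at 4128 to 4241 CPM at 12 h, above all other libraries, while the HSPB1 and HSPE1 controls were spread widely.

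HSPA8 encodes the constitutive cytosolic HSP70. Its control libraries had 2224, 2059, 2279 and 2102 CPM, and those at 12 h had 4128, 4241, 4157 and 4194 CPM. All 12 h libraries were far above all controls and close to each other, and HSPA8 rose 1.93-fold (log2 fold change 0.95, SE 0.07, adjusted p = 1.40e-11 in edgeR). At 24 h the libraries had 2317, 2822, 2898 and 3093 CPM. These were still above every control, with replicate 1 nearest to them, and the difference was 0.36 (SE 0.07, adjusted p = 7.23e-05).

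By 48 h, HSPA8 was at 1685, 1728, 1760 and 1754 CPM, and at 72 h at 1713, 1700, 1506 and 1545 CPM. At both times every EGF library was below every control. The log2 fold change was -0.32 at 48 h (adjusted p = 0.000412) and -0.42 at 72 h (adjusted p = 9.29e-06), and 48 and 72 h did not differ detectably (-0.10, 95% interval -0.23 to 0.03). With library size only, however, 72 h was called lower than 48 h (-0.19, adjusted p = 0.0238). The order of the means was thus 12 h, 24 h, control, 48 h and 72 h, and only the last neighbours did not differ by the test. HSPA8 lies on chromosome 11 (123057489 to 123063230, minus strand, GENCODE 29), and its 9 merged exon blocks hold the snoRNA genes SNORD14C and SNORD14D, which had at most 2 counts.

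HSPA1A and HSPA1B encode the stress-inducible cytosolic HSP70. They are single-exon genes on chromosome 6, at 31815464 to 31817946 and 31827735 to 31830255. Of the 75-base windows of the HSPA1A transcript, the read length used, 71.2% also occur in HSPA1B, so the split of reads between both is uncertain. HSPA1B further shares 36.5% of its exon bases with the lncRNA AL671762.1 on the same strand, which had 22.4% to 78.4% as many counts as HSPA1B.

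HSPA1A had 115, 109, 100 and 108 CPM in the control, compared with 172, 187, 160 and 174 CPM at 12 h. The groups did not overlap, and the rise was 1.60-fold (log2 fold change 0.68, SE 0.09, adjusted p = 3.57e-07). At later times the means were 102 ± 9.86 at 24 h, 96.8 ± 12.7 at 48 h and 92.0 ± 8.88 CPM at 72 h (SD, n = 4). Against the control, only 72 h passed the test, with -0.23 (adjusted p = 0.0281). That call was lost without control replicate 1 (adjusted p = 0.0784) and without EGF 72 h replicate 2 (0.107) or 4 (0.0755). Conversely, without EGF 48 h replicate 2 HSPA1A was called lower at 48 h (-0.24, adjusted p = 0.0343).

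HSPA1B had 36.4, 40.9, 30.4 and 33.5 CPM in the 4 controls, compared with 49.8, 56.3, 51.3 and 47.5 CPM at 12 h. Here too every 12 h library exceeded every control, with a log2 fold change of 0.54 (SE 0.08, adjusted p = 3.93e-06). It was -0.22 at 72 h (adjusted p = 0.0248), a call lost without control replicate 1 or 2 or EGF 72 h replicate 1, 3 or 4, and without control replicate 2 the value was -0.15. With only the 8 libraries compared the call was lost as well (-0.22, adjusted p = 0.0702). With the counts of both genes added, the summed level was 143 ± 9.64 CPM in the control, compared with 225 ± 13.3 CPM at 12 h (SD, n = 4). The sum rose by 0.66 at 12 h (adjusted p = 1.51e-07) and fell by 0.22 at 72 h (adjusted p = 0.0223), while 24 and 48 h did not pass. HSPA1A held 71.2% to 78.6% of the summed counts in every library. With only genes of at least 10 counts in every library, the 72 h calls of both genes were lost, at -0.18 and -0.17.

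DNAJB1 is the J protein that delivers substrates to HSP70 and stimulates its ATPase. Its libraries had 154, 149, 131 and 143 CPM in the control, compared with 237, 247, 238 and 246 CPM at 12 h. The 12 h libraries were tightly grouped above all others in the series, and DNAJB1 rose 1.68-fold (log2 fold change 0.75, SE 0.06, adjusted p = 5.72e-11). At 24 h the mean was 157 ± 7.81 CPM and the difference of 0.12 did not pass (adjusted p = 0.0777), although it did without control replicate 1 (0.15, adjusted p = 0.0337), in the DESeq2 Wald test (adjusted p = 0.0235) and with factors per gene (0.19, adjusted p = 0.0171).

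At 48 h DNAJB1 had 167, 170, 162 and 163 CPM and at 72 h 177, 163, 161 and 168 CPM. All of these were above all controls by a small margin, with differences of 0.20 (adjusted p = 0.00765) and 0.21 (adjusted p = 0.00294). The 48 h call was lost without a filter on low counts (adjusted p = 0.0508) or with only the 8 libraries compared (0.0668), and the 72 h call when libraries were scaled by size only (0.13, adjusted p = 0.0607). DNAJB1 lies on chromosome 19 (14514770 to 14529770, minus strand) and shares 5.75% of its exon bases with TECR on the opposite strand. TECR had 90.3% to 233% as many counts as DNAJB1. How strand was used in counting is not given in the sources used here.

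HSPH1 encodes HSP110, which acts as a nucleotide exchange factor for HSP70 and helps to dissolve aggregates. It had 87.9, 76.0, 107 and 92.1 CPM in the 4 controls, 179, 199, 202 and 208 CPM at 12 h and 160, 180, 205 and 206 CPM at 24 h. Both early times stood well above the control range and overlapped each other. HSPH1 rose 2.17-fold at 12 h (log2 fold change 1.12, SE 0.10, adjusted p = 1.16e-09) and 2.07-fold at 24 h (1.05, SE 0.10, adjusted p = 6.09e-09), and the times did not differ detectably (24 minus 12 h, -0.07, 95% interval -0.27 to 0.13).

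At 48 h HSPH1 was at 74.6, 73.0, 97.6 and 91.2 CPM, within or below the control range (log2 fold change -0.11, adjusted p = 0.405). At 72 h it was at 115, 119, 111 and 105 CPM, where all but replicate 4 exceeded the highest control, and the difference was 0.31 (adjusted p = 0.0112). That rise was 0.26 and no longer called with normalization factors per gene taken from the deposited normalized values. HSPH1 lies on chromosome 13 (31134974 to 31162388, minus strand), and no 75-base window of its transcript occurs in another gene.

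BAG3 is a nucleotide exchange factor and co-chaperone of HSP70 that directs clients to autophagy. It was the only one of the 10 genes called higher at all 4 times. These calls shared the same controls, and the share of all genes tested that were called so was not computed. The BAG3 libraries had 31.6, 39.7, 31.1 and 33.5 CPM in the 4 controls, 80.2, 81.1, 77.0 and 80.0 CPM at 12 h and 56.2, 57.6, 65.4 and 60.2 CPM at 24 h. They had 53.9, 47.4, 47.6 and 49.0 CPM at 48 h and 70.4, 56.5, 64.1 and 66.0 CPM at 72 h. Every EGF library was above every control, with control replicate 2 the highest of the controls.

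The fold changes of BAG3 against the control were 2.34 at 12 h (log2 1.23, SE 0.08, adjusted p = 2.77e-12), 1.76 at 24 h (0.82, adjusted p = 6.62e-09), 1.45 at 48 h (0.54, adjusted p = 6.96e-06) and 1.89 at 72 h (0.92, adjusted p = 6.87e-10). The order of the means was 12 h, 72 h, 24 h, 48 h and control, and only 72 and 24 h did not differ by the test (adjusted p = 0.317). BAG3 lies on chromosome 10 (119651370 to 119677819, plus strand), with 6 merged exon blocks and no 75-base window shared with another gene.

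HSP90AA1 encodes the inducible cytosolic HSP90. It had 1014, 915, 1148 and 1012 CPM in the 4 controls, 1452, 1474, 1507 and 1485 CPM at 12 h and 1377, 1502, 1585 and 1647 CPM at 24 h. At both times all EGF libraries were above all controls, and the highest values of the gene were at 24 h. It rose 1.45-fold at 12 h (log2 fold change 0.53, SE 0.07, adjusted p = 5.84e-07) and 1.49-fold at 24 h (0.58, SE 0.07, adjusted p = 2.78e-07), and 12 and 24 h did not differ detectably (24 minus 12 h, 0.05, 95% interval -0.09 to 0.19). With library size only, 24 h was called higher than 12 h (0.19, adjusted p = 0.0311).

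At 48 h, HSP90AA1 was at 829, 788, 958 and 943 CPM and at 72 h at 911, 992, 896 and 917 CPM. These overlapped the control range, with 2 libraries below it at each time. The fall of 0.22 on the log2 scale at 48 h passed the test (adjusted p = 0.0166), but was lost without control replicate 3 (-0.16, adjusted p = 0.0768) and without EGF 48 h replicate 1 (-0.19, 0.0610) or 2 (-0.17, 0.0705). It was also lost with only the 8 libraries compared (-0.22, adjusted p = 0.0844), and with factors per gene the value was -0.01. At 72 h the difference was -0.14 (adjusted p = 0.101), and was called without control replicate 2 (-0.19, adjusted p = 0.0259) and with library size only (-0.21, adjusted p = 0.0122). HSP90AA1 lies on chromosome 14 (102080738 to 102139699, minus strand), where WDR20 on the opposite strand overlaps 3.75% of its exon bases.

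HSPB1 encodes HSP27, a small heat shock protein that holds unfolded proteins without using ATP. Its controls were spread, at 301, 425, 249 and 314 CPM (SD 74.1), and the 12 h libraries had 348, 316, 301 and 305 CPM. The 12 h values lay inside the control range (log2 fold change -0.02, 95% interval -0.30 to 0.26, adjusted p = 0.905). At 24 h it had 279, 275, 260 and 233 CPM, 1 of them below all controls. The difference was -0.30 (adjusted p = 0.0784), called lower without control replicate 3 (-0.40, adjusted p = 0.0205), when scaled by library size only (-0.44) and with factors per gene (-0.36).

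At 48 h HSPB1 had 495, 496, 337 and 356 CPM, with replicates 1 and 2 above all controls and replicates 3 and 4 within their range. The difference was 0.39 (SE 0.14, adjusted p = 0.0324). It lost its call without control replicate 1 (adjusted p = 0.0816), 3 (0.126) or 4 (0.0669), without EGF 48 h replicate 1 (0.112) or 2 (0.122), without the filter (0.106), with only the 8 libraries (0.101) and with factors per gene (0.0871). At 72 h the libraries had 335, 251, 317 and 322 CPM, within the control range (-0.07, adjusted p = 0.680). HSPB1 lies on chromosome 7 (76302544 to 76304295, plus strand).

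HSPD1, or HSP60, forms the barrel of the mitochondrial folding chamber. It had 220, 197, 230 and 202 CPM in the 4 controls, 322, 334, 361 and 350 CPM at 12 h and 264, 282, 286 and 309 CPM at 24 h. The 3 groups did not overlap, with 24 h in between. HSPD1 rose 1.61-fold at 12 h (log2 fold change 0.69, SE 0.07, adjusted p = 3.54e-09) and 1.34-fold at 24 h (0.43, adjusted p = 8.88e-06).

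At 48 h HSPD1 was at 179, 165, 201 and 186 CPM and at 72 h at 176, 189, 178 and 183 CPM. All 72 h libraries and 3 of the 4 at 48 h were below every control. The log2 fold change was -0.22 at 48 h (adjusted p = 0.0114) and -0.23 at 72 h (adjusted p = 0.00584). The 48 h call was lost without EGF 48 h replicate 2 (-0.17, adjusted p = 0.0501) and with only the 8 libraries compared (0.0674).

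HSPE1, or HSP10, is the lid of that chamber. Its controls had 63.0, 37.1, 73.8 and 53.3 CPM, the widest relative spread of the 10 genes in the control (coefficient of variation 27.4%), and the 12 h libraries had 62.0, 60.1, 66.1 and 62.6 CPM. Control replicate 2 was the lowest, and all 12 h libraries lay within the control range. The difference was 0.14 (95% interval -0.12 to 0.41, adjusted p = 0.358). It was called higher without control replicate 3 (0.30, adjusted p = 0.0402) and was -0.01 without control replicate 2.

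At 24 h HSPE1 had 51.4, 57.4, 55.3 and 67.5 CPM (log2 fold change 0.03, adjusted p = 0.868). It had 35.7, 39.1, 47.1 and 37.5 CPM at 48 h and 37.1, 41.0, 39.1 and 41.1 CPM at 72 h. The later libraries were below all controls except replicate 2, and 1 library at each time was also below that. The fall was 0.51 on the log2 scale at 48 h (SE 0.14, adjusted p = 0.00435) and 0.52 at 72 h (SE 0.14, adjusted p = 0.00241).

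HSPD1 (197486581 to 197516737, minus strand) and HSPE1 (197499994 to 197503457, plus strand) overlap on chromosome 2, where 14.2% of the HSPE1 exon bases lie on exons of HSPD1 on the other strand. HSPD1 had 311% to 559% as many counts as HSPE1. HSPE1 also shares 9.71% of its exon bases with the readthrough gene HSPE1-MOB4, which had 48.6% to 101% as many counts as HSPE1, so its values depend on how reads were divided. Pseudogenes of HSPA8, HSPD1, HSPE1, HSPB1, HSP90AA1 and DNAJB1 held at most 0.217% as many counts as their parent genes.

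**Figure D2:**
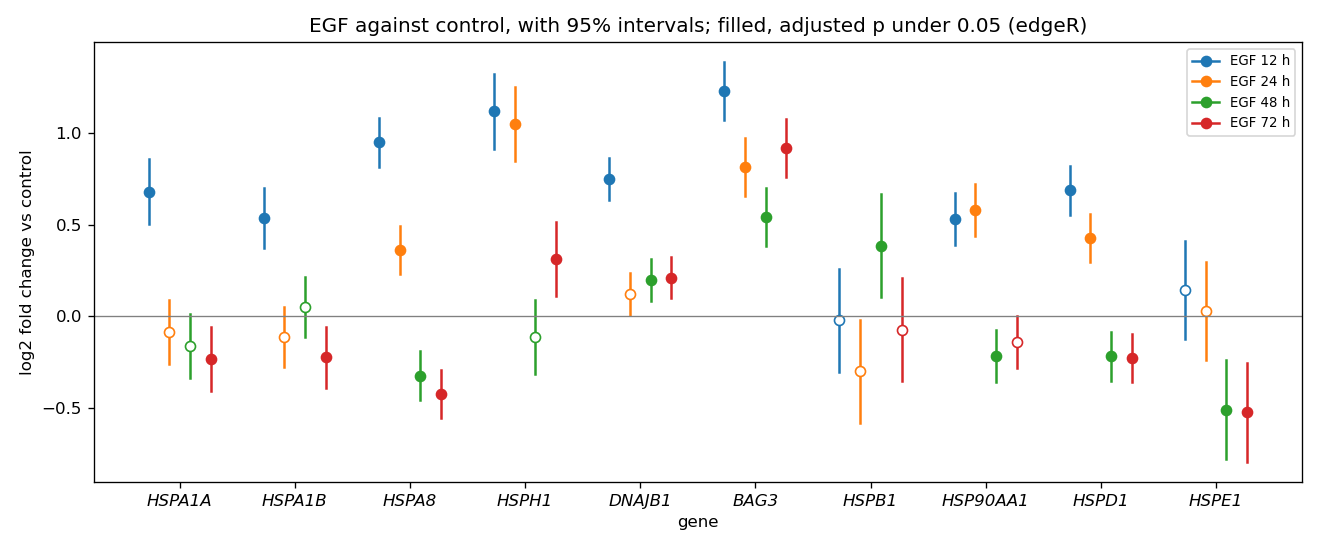
Log2 fold change of each gene (x axis) at 4 EGF times against the control, with 95% intervals, filled where the adjusted p was under 0.05 in edgeR. The 12 h points of 8 genes lie from 0.53 to 1.23, and at 48 and 72 h only BAG3 (0.54 and 0.92) and HSPE1 (-0.51 and -0.52) lie farther than 0.5 from 0.

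The comparisons of successive times ask when the levels changed after the first 12 h. From 12 to 24 h, 6 of the 10 genes fell and 0 rose, against 53.7% of all genes in either direction, 27.9% higher and 25.9% lower. The largest falls were those of HSPA1A (-0.76, SE 0.09, adjusted p = 2.12e-07), HSPA1B (-0.65, adjusted p = 8.29e-07), DNAJB1 (-0.63, adjusted p = 6.57e-09) and HSPA8 (-0.59, adjusted p = 1.73e-07), which left HSPA1A and HSPA1B within or below their control range. BAG3 (-0.41) and HSPD1 (-0.26) fell less, and the HSPD1 fall was not called with library size only (-0.12) or with factors per gene (-0.15). HSPH1 and HSP90AA1 did not pass the test, as given above. HSPB1 did not pass either, but was called lower with only the 8 libraries compared (-0.26, adjusted p = 0.00112) and with factors per gene (-0.39, adjusted p = 0.0237).

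From 24 to 48 h, 6 genes fell and 1 rose, against 50.2% of all genes in either direction, 25.9% higher and 24.3% lower. HSPH1 fell to 0.449 times its 24 h level (-1.16, SE 0.10, adjusted p = 3.78e-09) and HSP90AA1 to 0.576 times (-0.80, SE 0.07, adjusted p = 4.97e-09). HSPA8 (-0.68), HSPD1 (-0.64), HSPE1 (-0.54) and BAG3 (-0.27) also fell, and HSPB1 rose by 0.69 (SE 0.14, adjusted p = 0.000515). All 4 libraries at 48 h lay outside the 24 h range for these 7 genes, as they did for 44.6% of all genes tested. The fall of BAG3 was -0.12 and not called with library size only, under which HSPA1B (0.32) and DNAJB1 (0.23) were called higher.

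From 48 to 72 h, 2 genes rose and 2 fell, against 35.7% of all genes in either direction, 17.9% higher and 17.9% lower. HSPH1 (0.42, adjusted p = 0.00251) and BAG3 (0.38, adjusted p = 0.000631) rose again, both HSP70 cofactors. HSPB1 fell by 0.46 (adjusted p = 0.0166), a call lost without EGF 48 h replicate 1 or 2 or EGF 72 h replicate 2 (-0.37 in each case) and without the filter. HSPA1B fell by 0.28 (adjusted p = 0.0127), but the summed HSPA1A and HSPA1B counts did not pass (-0.12, adjusted p = 0.280).

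Scaling by library size only moved the median log2 fold change of all genes from -0.05 to -0.34 at 12 h and from -0.01 to -0.15 at 24 h. At 12 h 8 genes were still called higher, with smaller values, such as 0.40 for HSPA1A, 0.25 for HSPA1B, 0.46 for DNAJB1, 0.25 for HSP90AA1 and 0.40 for HSPD1. At 24 h the split became 5 higher and 3 lower in place of 5 and 0, with HSPA1A (-0.23), HSPA1B (-0.26) and HSPB1 called lower. It became 2 higher and 6 lower at 72 h, 1 and 5 from 12 to 24 h, 3 and 5 from 24 to 48 h and 2 and 3 from 48 to 72 h. Factors per gene gave 6 higher and 1 lower at 24 h. Over all genes, the share of calls that were higher went from 47.4% to 30.2% at 12 h and from 49.6% to 36.3% at 24 h with library size only. It went from 51.9% to 68.6% from 12 to 24 h (39.3% with factors per gene), from 51.5% to 71.8% from 24 to 48 h and from 50.0% to 33.8% from 48 to 72 h.

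Over the 20 libraries, the genes fell into differing courses, described here by Pearson's r of log2 CPM without a test, since libraries of a group share their treatment. HSPA8 and HSPD1 had r = 0.97, HSP90AA1 and HSPD1 0.95, and HSPH1 and HSP90AA1 0.94. HSPA1A and HSPA1B had 0.89, and each was closer to DNAJB1 (0.84 and 0.82) than to HSP90AA1 (0.54 and 0.36). HSPD1 and HSPE1, the subunits of 1 complex, had 0.82. HSPB1 had negative values with HSP90AA1 (-0.64), HSPE1 (-0.64) and HSPH1 (-0.64), and BAG3 was closest to DNAJB1 (0.78).

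**Figure D3:**
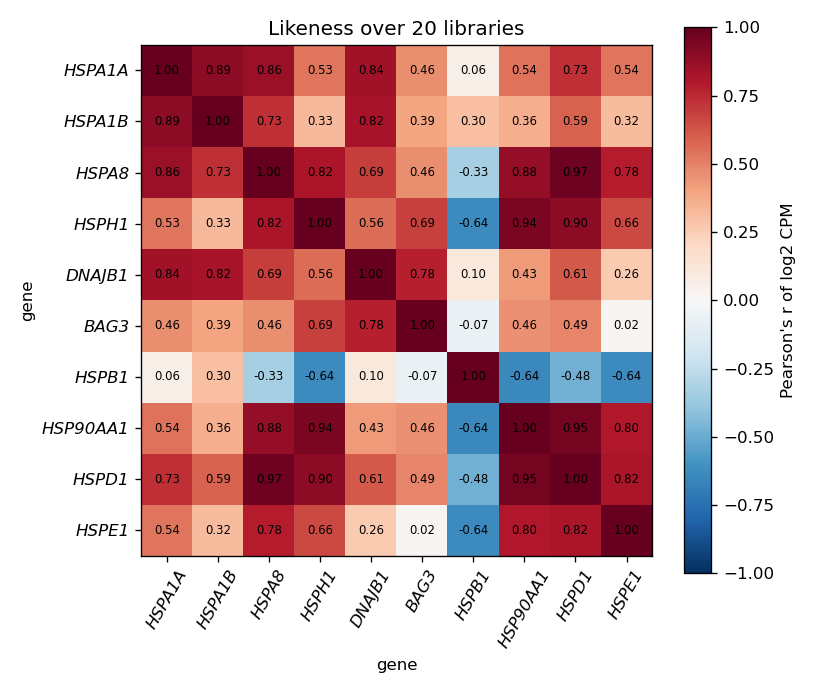
Pearson's r of log2 CPM over 20 libraries for each pair of the 10 genes, from -1 (blue) to 1 (red). HSPA8, HSPH1, HSP90AA1 and HSPD1 form a block with r of 0.82 to 0.97, and all values under -0.3 involve HSPB1.

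Among 9032 other genes with a mean of at least 10 CPM, those most like each gene by the same measure were CTNNB1 for HSPA8 (r = 0.99), IPO5 for HSPH1 (0.99), RAN for HSPD1 (0.99) and CCT8 for HSP90AA1 (0.98). NFKB2 was nearest to BAG3 (0.99), TNIP1 to DNAJB1 (0.97), ATF4 to HSPA1A (0.97) and CCDC120 to HSPA1B (0.94). RPP30 was nearest to HSPE1 (0.96) and TBC1D16 to HSPB1 (0.94).

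The other genes of the chaperone network were taken as 8 lists with 88 genes, of which 80 were tested. At 12 h, 46 were higher and 14 lower, with a median log2 fold change of 0.31, and at 24 h 36 were higher and 10 lower (median 0.16). At 48 h, 6 were higher and 27 lower (median -0.10), and at 72 h 19 were higher and 27 lower (median -0.06). Over all genes tested, 32.9% were higher and 36.5% lower at 12 h, and 29.2% and 29.6% at 24 h. The shares were 24.0% and 21.8% at 48 h, and 30.6% and 31.0% at 72 h. The same shares apply to the lists that follow, and the medians over all genes are given above.

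Of 14 tested genes for HSP90 and its co-chaperones, 10 were higher and 2 lower at 12 h (median 0.55) and 11 higher and 1 lower at 24 h (median 0.45). At 12 h FKBP4, an immunophilin of steroid receptor complexes, rose from 38.9 to 94.7 CPM (1.28) and CHORDC1 from 64.5 to 150 CPM (1.22), while FKBP5 (-0.24) and AHSA2P (-0.44) fell. Of 14 genes of the TRiC chaperonin, which folds actin and tubulin, and of prefoldin, which delivers them, 10 were higher and 1 lower at 12 h (median 0.57). At 48 h 0 were higher and 8 lower (median -0.26). PFDN2 (0.90) and CCT3 (0.79) had the largest rises at 12 h, and PFDN5 (-0.28) fell.

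Of 17 tested mitochondrial chaperones and proteases, 11 were higher and 4 lower at 12 h (median 0.26) and 8 and 5 at 72 h. The exchange factors of mitochondrial HSP70, GRPEL1 and GRPEL2, rose from 15.4 to 43.9 CPM (1.51) and from 45.5 to 105 CPM (1.20) at 12 h. The J proteins HSCB, which serves iron-sulfur cluster assembly, and DNAJC19 fell by 1.02 and 0.93 on the log2 scale. These 2 pairs were named as the largest rises and the largest falls of the list, so their opposite directions follow from that choice.

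Among 13 other J proteins, 7 were higher and 1 lower at 12 h, and 3 higher and 6 lower at 72 h. At 72 h DNAJB5 rose from 3.43 to 8.30 CPM (1.27) and DNAJA4 from 1.01 to 1.84 CPM (0.85, adjusted p = 0.0348 in edgeR, 3 of 4 libraries above all controls), whereas DNAJA1 (-0.53) and DNAJC8 (-0.41) fell. The 8 nucleotide exchange factors and HSP70 regulators had 4 higher and 0 lower at 12 h, and 0 higher and 5 lower at 72 h. Over all genes tested, 69.4% were called in either direction at 12 h and 61.6% at 72 h. BAG1, another exchange factor of the BAG family, fell from 48.1 to 22.5 CPM at 72 h (-1.10, adjusted p = 5.66e-12) and BAG2 from 23.6 to 16.0 CPM (-0.56), against the rise of BAG3 at the same time.

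Of 7 tested other HSP70 and HSP110 genes, 2 were higher at 12 h, HSPA13 (0.72) and HSPA4 (0.68), and 4 lower, HSPA4L (-1.02, from 4.04 to 1.99 CPM) and HSPA1L (-0.60, from 1.95 to 1.29 CPM) most so. HSPA6, an HSP70 gene known to be silent without strong stress and named here after its values were seen, did not pass the filter and was not tested. Its mean levels were 0.0225 CPM in the control, 0.0665 at 12 h, 0.0244 at 24 h, 0.0667 at 48 h and 0.321 CPM at 72 h. These rest on few reads, with at most 1 count per control library and 3 to 9 counts at 72 h. Of the 8 other small heat shock genes, 2 were tested, and at 12 h both CRYAB (-0.21, 188 to 162 CPM) and HSPB7 (-2.51, 0.838 to 0.142 CPM) fell. CRYAB, a small heat shock protein also known as a lens crystallin, was farther below its control at 24 h (-1.76, 55.5 CPM), 48 h (-1.01, 93.3 CPM) and 72 h (-1.77, 55.1 CPM). HSPB7 was lower at 24 h (-3.29) and 72 h (-1.66), while 48 h did not pass (-0.33, adjusted p = 0.452). Among the 5 heat shock factors and regulators, HSF1, the factor of the heat shock response, rose from 25.5 to 47.5 CPM at 12 h (0.90, SE 0.11, adjusted p = 2.31e-07 in edgeR) and HSF2 from 50.1 to 66.6 CPM (0.41). At 24 h 1 of the 5 was higher.

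**Figure D4:**
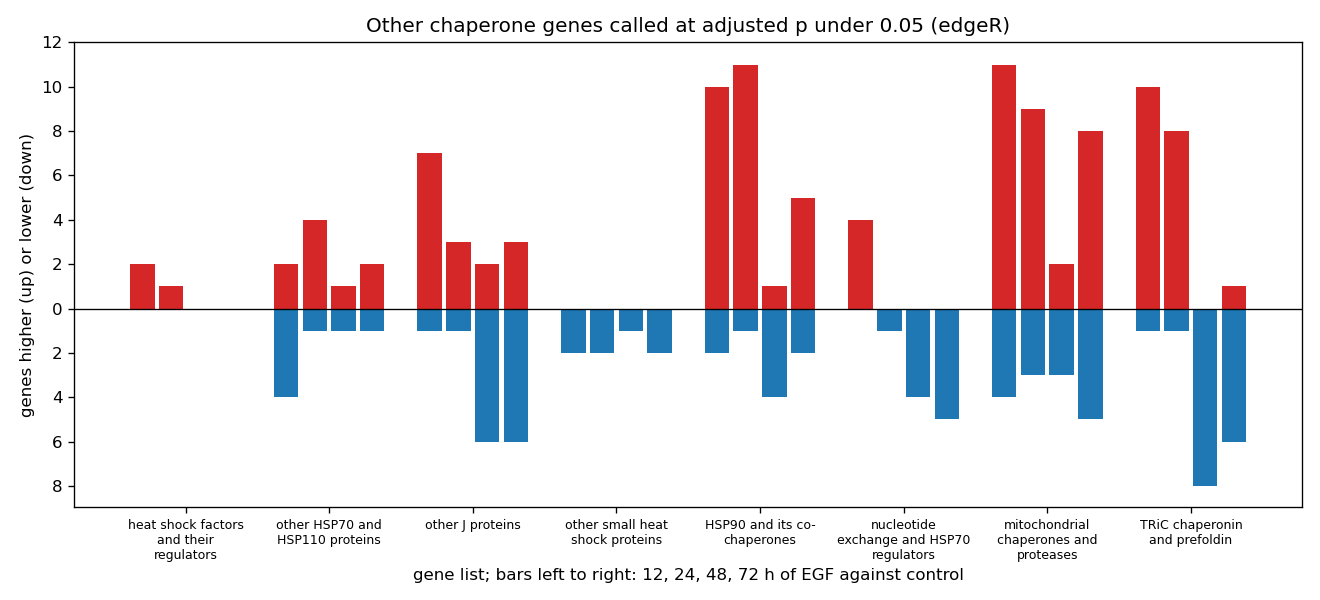
Number of genes of each list (x axis) called higher (red, upward) or lower (blue, downward) against the control, with 1 bar per EGF time in ascending order from left to right. The HSP90 and TRiC lists have 10 genes higher at 12 h, and the TRiC list has 8 lower at 48 h.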

How the data were processed

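Per the labels and the methods of the study, RNA of MDA-MB-468 cells was extracted with the RNeasy Mini kit, libraries were made with the Lexogen Corall mRNA protocol, and single-end reads of 75 bases were sequenced. The submitters' processing notes name hg38 and DESeq2. The aligner, the annotation and the handling of molecular identifiers are not given in the sources used here. The authors deposited a whole-number count per gene and library, not normalized, and beside it a normalized value, treated as a score on the scale of counts, which differs from the count by a factor that varies between genes. Their fold changes and p-values were not used.

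The deposited counts were analyzed in edgeR 4.0.16 (R 4.3.3, limma 3.58.1) with TMM scaling and filterByExpr, in 1 robust quasi-likelihood model with a mean for each group. Contrasts set each EGF time against the control and against the preceding time, with Benjamini-Hochberg adjustment over 16522 genes and a threshold of 0.05. Named are all 10 genes, and of each other list the 2 largest rises and 2 largest falls at the time when most of the list passed. For likeness, the nearest of the 3 ranked genes is given. The 10 genes, the lists and the tests were chosen with earlier results of these data known. Totals ranged from 15611961 to 25856953 counts per library, and the precision follows the spread between replicates, which exceeded sampling noise in all 30 pairs. Averaged over genes, the variance was 3.53 to 57.5 times that of sampling noise. It was highest between EGF 48 h replicates 2 and 3, and was 50.8 times between control replicates 2 and 3. DESeq2 1.42.0, other scalings and filters, a replicate block, factors per gene (count divided by the normalized score, for genes with 20 counts or more per library) and leaving out each library were alternatives. The procedure was tested on simulated data. Positions are from GENCODE 29 on hg38, promoters from RefSeq.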

Additional observations from a re-analysis of the deposited data

Results flagged for a closer look

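No library of the 10 genes stood apart from its group by Dixon's test, which with 4 libraries per group can flag only extreme values. Listed here are the changes between successive EGF times that passed the test of the difference itself (edgeR's quasi-likelihood test), as log2 fold changes of 4 against 4 libraries. From 12 to 24 h these were HSPA1A (-0.76), HSPA1B (-0.65), HSPA8 (-0.59), DNAJB1 (-0.63), HSPD1 (-0.26) and BAG3 (-0.41). From 24 to 48 h they were HSPA8 (-0.68), HSPH1 (-1.16), HSPB1 (0.69), HSP90AA1 (-0.80), HSPD1 (-0.64), HSPE1 (-0.54) and BAG3 (-0.27). From 48 to 72 h they were HSPA1B (-0.28), HSPH1 (0.42), HSPB1 (-0.46) and BAG3 (0.38).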

How the results depend on the processing

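The number of the 10 genes called stayed within 1.5 times in all comparisons and alternatives, except 24 h against the control with library size only (8 genes) and 48 h with only the 8 libraries compared (3 genes). DNAJB1 at 24 h, HSPA1B from 24 to 48 h and HSPE1 at 12 h changed sign under some alternatives but were called higher under others. The changes of sign were all between a main value and an alternative value, neither of which passed the test. With DESeq2 size factors they were HSPB1 at 12 h (0.00380) and, from 48 to 72 h, HSPD1 (0.0112) and HSPE1 (0.00716), and with the DESeq2 Wald test the same 3 (0.00677, 0.0126 and 0.0110). With library size only they were HSPE1 at 12 h (-0.14) and 24 h (-0.11), DNAJB1 at 24 h (-0.0235), HSPH1 (0.0688) and HSPE1 (0.0263) from 12 to 24 h, HSPA1A from 24 to 48 h (0.0783), and DNAJB1 (-0.0725) and HSP90AA1 (-0.00992) from 48 to 72 h. Without a filter it was HSPB1 at 12 h (0.0147), and with at least 10 counts HSPD1 (0.00642) and HSPE1 (0.00204) from 48 to 72 h. With factors per gene they were HSPB1 at 12 h (0.0347), HSPE1 at 24 h (-0.0669), and HSP90AA1 (-0.00232) and HSPE1 (0.0143) from 48 to 72 h, and with HSPA1A and HSPA1B summed, HSPA1B at 48 h (-0.10) and from 24 to 48 h (-0.00717). Leaving out 1 library gave -0.12 to 0.14 for HSPB1 and -0.0132 to 0.30 for HSPE1 at 12 h, -0.13 to 0.18 for HSPE1 at 24 h, -0.0136 to 0.13 for HSPA1B at 48 h and -0.18 to 0.0889 for HSPB1 at 72 h. From 48 to 72 h it gave -0.14 to 0.00612 for HSPA1A, -0.0555 to 0.0393 for HSPD1, -0.0631 to 0.0780 for HSPE1 and -0.00409 to 0.0341 for DNAJB1. The cause was not tested. Replicate numbers showed no clear pairing of the samples, which these values cannot exclude. Correlated deviations over 0.1 were found in 5 of 40 same-numbered pairs and 10 of 120 other pairs. Of the 20 libraries, 8 had their highest correlation with a library of the same number. A replicate block changed only HSPA1B from 24 to 48 h, which passed at 0.16 (adjusted p = 0.0455 in edgeR).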

Other observations

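The 10 genes together held 0.448% ± 0.0149 of all counts in the control, 0.626% ± 0.0189 at 12 h and 0.528% ± 0.0396 at 24 h, then 0.398% ± 0.00897 at 48 h with 0.359% ± 0.00965 at 72 h (SD, n = 4). The 12 h libraries, with 0.606% to 0.646%, lay above all others, and the 72 h libraries, with 0.347% to 0.368%, below all others. HSPA8 and HSP90AA1 make up most of this share, and no test was made of it.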
